A study of Mus musculus with 9 samples.

Results

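The BCL2 family acts at the mitochondrion, where it sets whether a cell lives or enters apoptosis, and 10 of its genes were followed in splenic type 2 dendritic cells of young and adult mice. They were taken by symbol from the 24054 genes of the count and TPM files. Guardians (Bcl2, Bcl2l1, which encodes BCL-XL, and Mcl1) hold the effectors in check. The effectors Bax and Bak1 form pores in the outer mitochondrial membrane, and the BH3-only genes (Bcl2l11, which encodes BIM, Bid, Bbc3, which encodes PUMA, Pmaip1, which encodes NOXA, and Bmf) carry death signals to both. Dendritic cells are short-lived cells that are replaced from bone marrow or, early in life, liver-derived progenitors, and the survival of conventional dendritic cells depends on guardians of this family.

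All 9 libraries came from spleens of C57BL/6 mice with the genotype Clec9a-Cre/Cre Rosa-tdTomato/tdTomato, so every group carried Cre in place of both Clec9a alleles. The fluorescent protein TOMATO (TOM) labels cells that expressed Cre from the Clec9a locus at some time, or whose progenitors did, and so records descent and not a present state. Cells were enriched with CD11c beads and sorted as live, single, autofluorescence-negative cells positive for MHCII, CD11c and CD11b. They formed 3 groups of 3 libraries: TOM+ cDC2 at postnatal day 8 (young TOM+), TOM- DC2 at postnatal day 8 (young TOM-), and TOM+ cDC2 of adults, of which 1 library was from mice 9 weeks old and the others from mice 8 weeks old. No adult TOM- group was analysed here, and spleens of young mice were pooled. Libraries are given below in the order 1, 2, 3 of each group. Between 12783252 and 22809401 reads per library were counted on genes. The 10 genes held from 58 reads, for Bak1 in an adult library, to 38190 reads, for Pmaip1 in another, so all of them passed the filter of an average count of at least 1, as did 14452 genes in all.

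The sorted cells carried the markers of cDC2. The summed TPM (a transcript level scaled for gene length and for the total of the library) of 10 cDC2 markers was 61639 to 65907 in young TOM+, 58649 to 63507 in young TOM- and 92562 to 95832 in adult libraries. Most of it came from Cd74 and H2-Ab1, antigen presentation genes of every MHCII+ cell, and the markers did not move together. In young TOM+ against adult cells 7 of the 10 were lower at padj under 0.05, against 19.5% of all genes tested. Among these, Esam had a log2FC (young over adult) of -2.21 (padj = 7.16e-06). Another 2 were higher (21.0% of all genes), Sirpa (0.56, padj = 0.00025) and Itgam (0.78, padj = 0.000117). Several marker sums of other cells differed between groups. Monocyte and macrophage markers (7 genes) summed to 350.2 to 381.9 TPM in young TOM+, 365.3 to 423.9 in young TOM- and 240.9 to 283.6 in adult libraries. Csf1r was the largest part. In young TOM+ against adult cells 2 of the 7 were higher (21.0% of all genes), Csf1r and Spic. Vcam1 was the 1 that was lower (19.5% of all genes), with a log2FC of -0.74 (padj = 0.000731). For erythroid markers (6 genes) 1 young TOM- library reached 645.2 TPM. B cell markers summed to 41.1 to 80.8 TPM and T cell markers to 22.5 to 40.0 TPM over all libraries, mostly from Cd79b and Cd5, and the defining genes Pax5 and Cd3e reached at most 0.12 and 1.74 TPM. cDC1 markers summed to 126.8 to 197.1 TPM, mostly from Wdfy4. NK cell, pDC and neutrophil markers stayed at or under 0.73, 5.05 and 21.9 TPM. Of 11 proliferation genes, 10 were higher in young TOM+ than in adult libraries at padj under 0.05 with a log2FC beyond 1. Of all genes, 12.8% passed both bounds in either direction. The proliferation genes summed to 984.4 to 1059 TPM in young TOM+, 922.9 to 984.1 in young TOM- and 462.2 to 562.6 in adult libraries. The part of these marker and proliferation differences in the results below was not tested.

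The places of the genes bear on how their reads could be counted, since the libraries kept no strand. Coordinates are those of RefSeq on GRCm38.p6, the build (mm10) to which the authors aligned. Mcl1 (chr3:95656944-95663179, plus strand), Bax (chr7:45461695-45466903, minus strand), Bbc3 (chr7:16308398-16318334, plus strand) and Bmf (chr2:118528757-118549686, minus strand) overlapped no other gene of that annotation. Bak1 (chr17:27019812-27028627, minus strand) overlapped Ggnbp1, which held 3 to 18 reads per library. Bcl2l11 (chr2:128126038-128162547, plus strand) overlapped Acoxl, with 0 to 3 reads per library. Bcl2l1 (chr2:152758732-152833803, minus strand) overlapped Cox4i2, and Bcl2 (chr1:106538176-106714290, minus strand) overlapped Mir3473f, and neither of these held a read in any library. Bcl2 also overlapped the gene model Gm37053, Bcl2l1 the gene model Gm32211 and Bid (chr6:120893119-120917062, minus strand) the gene model Gm17812, and these 3 were not analysed here.

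Promoter windows are shown for Bid and Bak1, which were higher in young cells, and for Bbc3 and Bmf, which were higher in adult cells. They run from 250 bases before to 50 bases after a RefSeq transcript start (GRCm38.p6), and each is written 5′ to 3′ on the strand of its gene. Capitals mark matches, on either strand, to GTAAACA (a FOXO motif), TTCCCGC (an E2F motif) or the p53 half-site, which is named only.
Bid, chr6:120916775-120917074, minus strand: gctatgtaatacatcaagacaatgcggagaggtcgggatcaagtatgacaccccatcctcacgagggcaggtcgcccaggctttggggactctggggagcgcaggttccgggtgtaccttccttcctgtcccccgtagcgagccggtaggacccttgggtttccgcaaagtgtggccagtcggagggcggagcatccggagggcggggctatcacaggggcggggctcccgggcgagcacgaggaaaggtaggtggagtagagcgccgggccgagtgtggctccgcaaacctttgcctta
Bak1, chr17:27028578-27028877, minus strand: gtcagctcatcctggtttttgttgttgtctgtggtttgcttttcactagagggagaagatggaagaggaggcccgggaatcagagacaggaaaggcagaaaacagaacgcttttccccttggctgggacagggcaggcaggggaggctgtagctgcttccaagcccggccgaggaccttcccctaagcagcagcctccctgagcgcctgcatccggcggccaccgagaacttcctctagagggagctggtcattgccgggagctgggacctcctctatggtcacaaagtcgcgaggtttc
Bbc3, the second of 3 windows, chr7:16310011-16310310, plus strand: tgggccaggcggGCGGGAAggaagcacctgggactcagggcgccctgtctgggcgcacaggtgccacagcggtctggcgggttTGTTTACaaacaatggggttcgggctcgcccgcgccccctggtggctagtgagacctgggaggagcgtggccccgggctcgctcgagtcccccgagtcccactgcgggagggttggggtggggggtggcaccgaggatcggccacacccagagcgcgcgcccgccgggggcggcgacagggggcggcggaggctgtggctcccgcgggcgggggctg
Bmf, the first of 3 windows by position, chr2:118544538-118544837, minus strand: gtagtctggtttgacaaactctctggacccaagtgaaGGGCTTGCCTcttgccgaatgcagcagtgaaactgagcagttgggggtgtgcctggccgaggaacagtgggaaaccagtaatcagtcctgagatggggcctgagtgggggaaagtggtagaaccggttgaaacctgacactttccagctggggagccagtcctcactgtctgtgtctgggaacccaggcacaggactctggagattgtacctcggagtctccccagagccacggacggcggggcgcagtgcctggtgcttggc

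The windows of Bid and Bak1 held none of these motifs. The Bbc3 window held the FOXO and the E2F motif, each once, and the Bmf window held the p53 half-site. The pattern of that half-site, but not the letters matched here, reads alike on both strands. The remaining windows of Bbc3 and Bmf held none. Among all 32817 distinct windows of this length, 3.65% held the FOXO motif, 4.6% the E2F motif and 8.36% the p53 half-site. Of the other members with a window in the table, Bax matched the p53 half-site and 1 of 2 windows of Bcl2l11 the FOXO motif. Windows of Bcl2, Mcl1, Bcl2l11 and Bbc3 were richer in G and C (65.7% to 78.0%) than the median window (52.7%), and those of Bmf held 53.3% to 58.7%. A match describes letters and does not show that a factor was bound.

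The 10 genes spanned levels from 2.45 to 1527 TPM. Among these 10 genes, 1 gene of each role made up most of the RNA. Mcl1, a guardian with a short-lived protein, was 94.1% to 96.6% of the summed TPM of the guardians among them in every library. A1 (Bcl2a1), a guardian outside the 10 genes, held more TPM than Mcl1 in every group and is given below. Bax was 96.9% to 98.6% of the effectors. Pmaip1, whose product binds MCL1, was 83.4% to 86.5% of the BH3-only sum in young libraries and 91.7% to 93.8% in adult libraries.

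**Figure D1:**
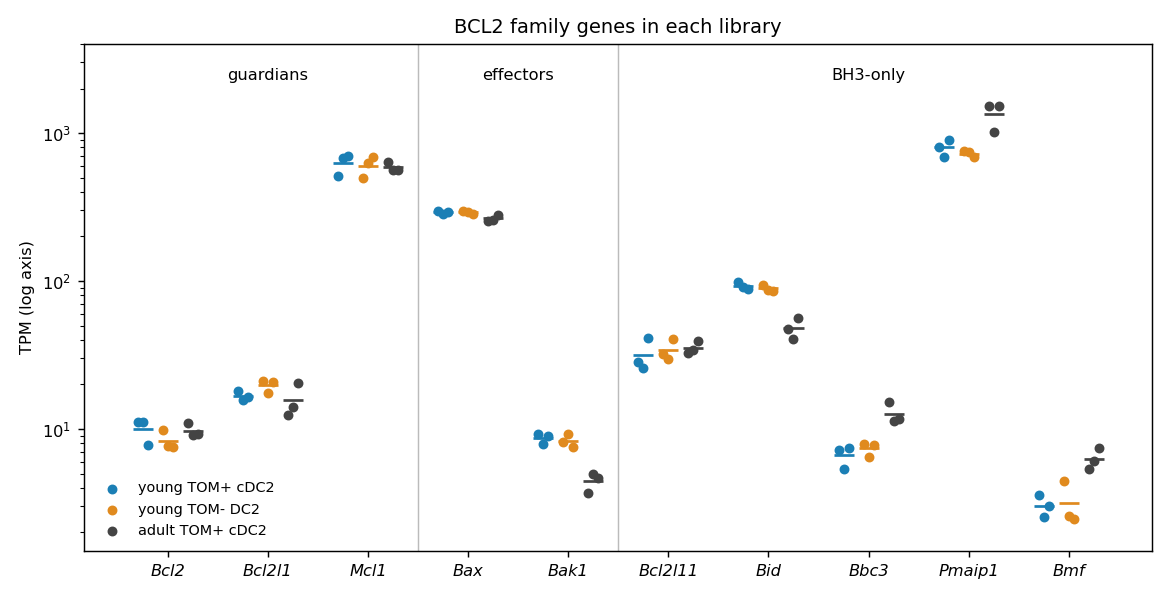
TPM of the 10 genes in each library (log axis), with a point per library, a bar at the mean of the 3 libraries of a group, and colours for young TOM+ cDC2, young TOM- DC2 and adult TOM+ cDC2. Pmaip1, Mcl1 and Bax lie above 250 TPM in every library, adult points lie above both young groups for Bbc3, Pmaip1 and Bmf, and they lie below them for Bak1 and Bid.

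By level, Pmaip1 and Mcl1 stood first, and Pmaip1 was above Mcl1 in 8 of 9 libraries. In young libraries their ranges overlapped, with Pmaip1 at 684.8 to 902.2 TPM and Mcl1 at 496.1 to 700.7 TPM, whereas in adults Pmaip1 began at 1012 TPM and Mcl1 ended at 641.4 TPM. The ratio of Pmaip1 to Mcl1 TPM was 1.58, 1.02 and 1.29 in young TOM+, 1.52, 1.19 and 1.00 in young TOM-, and 2.38, 1.81 and 2.69 in adult libraries. Bax, Bid and Bcl2l11 followed in that order in every group without overlap. Bcl2l1 lay under Bcl2l11 and above Bcl2 in every group. Some of the lowest genes were not separate from each other. In young TOM+ cDC2, Bcl2 (7.80 to 11.2 TPM) and Bak1 (7.88 to 9.27 TPM) overlapped, and Bbc3 (5.39 to 7.46 TPM) lay just under them. In adults Bbc3 (11.4 to 15.2 TPM) overlapped Bcl2l1 (12.4 to 20.3 TPM), lay above Bcl2 (9.06 to 10.9 TPM), and the last places changed, with Bmf (5.36 to 7.43 TPM) above Bak1 (3.71 to 5.0 TPM).

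The first comparison asked how TOM+ cDC2 of young mice differed from the same cells of adults. None of the guardians among the members differed at padj under 0.05, while 5 of the other 7 members did. The guardian A1, outside the members, was lower in young TOM+ cDC2 when its copies were summed (log2FC -0.43, padj = 0.00794, edgeR on expected counts). Bid and Bak1 were higher in young TOM+ cDC2, by 1.76-fold and 1.75-fold, and Bbc3, Pmaip1 and Bmf were higher in adults, by 2.16-fold, 1.84-fold and 2.29-fold. In all, 5 of 10 members passed at padj under 0.05, against 40.6% of all genes tested. Of these, 2 were higher in young cells (background 21.0%) and 3 were lower (19.5%), and Bbc3 and Bmf also passed the study's bound of a log2FC beyond 1 (12.8%). The same 5 were those whose groups did not overlap in normalised counts, which held for 51.1% of all genes. The share of members that passed was thus near that of all genes. Their median log2FC was -0.02, against 0.05 over all genes, and their median absolute log2FC was 0.50, against 0.43. In bulk samples fewer cells of a type and less RNA per cell cannot be told apart.

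**Figure D2:**
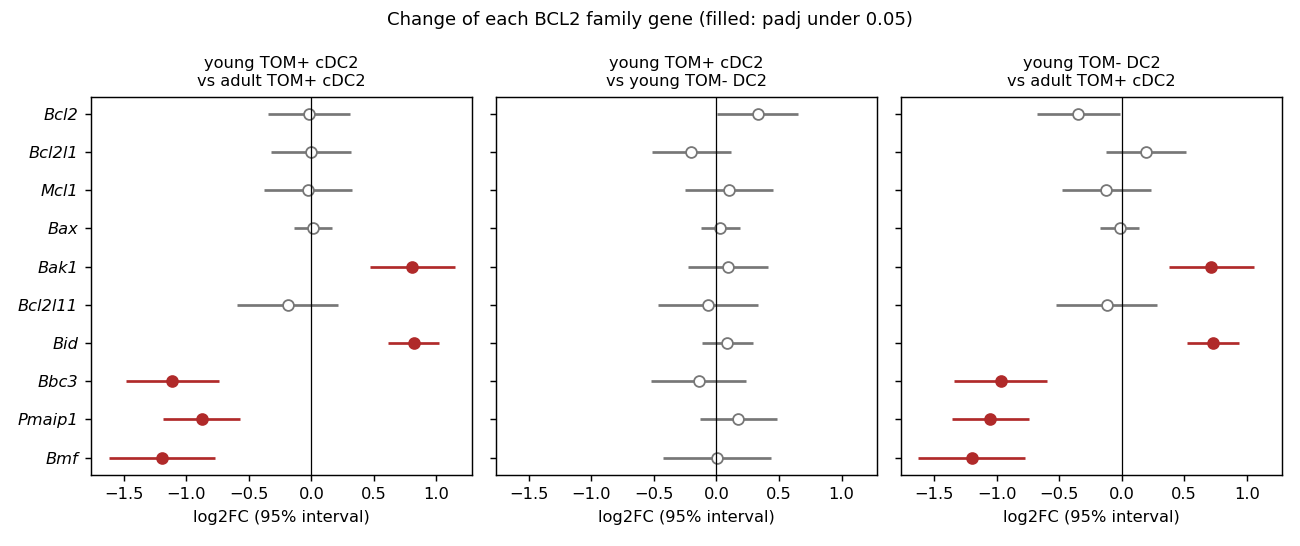
Log2FC of each gene with its 95% interval (edgeR, 3 libraries per group) in the 3 comparisons, with filled red points for padj under 0.05. Bak1 and Bid lie to the right of 0 and Bbc3, Pmaip1 and Bmf to the left in both panels with adults, and no gene is filled in the panel that compares the young groups.

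Among the guardians, Bcl2, the founding member of the family, measured 11.2, 11.2 and 7.80 TPM in young TOM+ and 10.9, 9.06 and 9.31 TPM in adult libraries. The lowest and the highest library were both young, and the log2FC was -0.02 ± 0.15 (SE, 95% interval -0.34 to 0.31, padj = 0.938). Bcl2l1 measured 18.0, 15.8 and 16.6 TPM in young TOM+ and 12.4, 14.0 and 20.3 TPM in adult libraries. The young values lay inside the adult range, and the log2FC was -0.01 ± 0.15 (SE, 95% interval -0.33 to 0.31, padj = 0.981). Mcl1 measured 511.5, 681.2 and 700.7 TPM in young TOM+ and 641.4, 559.9 and 561.5 TPM in adult libraries. Again 1 young library was the lowest and another the highest of all, and the log2FC was -0.03 ± 0.16 (SE, 95% interval -0.38 to 0.33, padj = 0.919). These intervals leave room for a fall of up to 0.38 and a rise of up to 0.33 on the log2 scale.

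The effectors parted from each other. Bak1 measured 9.27, 7.88 and 9.03 TPM in young TOM+ and 3.71, 5.0 and 4.69 TPM in adult libraries. Every young library was above every adult one, and the log2FC was 0.81 ± 0.16 (SE, padj = 0.00135). Its counts were low, at 163 to 216 reads in young TOM+ and 58 to 93 reads in adult libraries. Bax measured 299.5, 284.6 and 291.3 TPM in young TOM+ and 255.7, 258.3 and 280.4 TPM in adult libraries. On this scale all young libraries were above all adult ones, but in normalised counts the groups overlapped, and the log2FC was 0.01 ± 0.07 (SE, 95% interval -0.14 to 0.17, padj = 0.898). On log2(TPM + 1) the difference in Bax was 0.14 (limma, padj = 0.0697). The TPM scale itself placed the median of all genes at 0.10, against 0.05 in normalised counts, and put 67.4% of the genes that passed on the young side, against 51.9%.

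Of the BH3-only genes, Bid was the one that was higher in young cells. Its product is cut by caspase-8 downstream of death receptors, and the fragment activates BAX and BAK. It measured 98.1, 90.5 and 88.6 TPM in young TOM+ and 47.6, 40.7 and 56.3 TPM in adult libraries. No libraries overlapped, and with a log2FC of 0.82 ± 0.09 (SE, padj = 3.14e-05) it had the smallest padj of the 10 genes.

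Bbc3, Pmaip1 and Bmf were lower in young cells. Bbc3, a p53 and FOXO target whose product binds all guardians, measured 7.20, 5.39 and 7.46 TPM in young TOM+ and 15.2, 11.4 and 11.6 TPM in adult libraries. Adult library 1, of mice 9 weeks old, was the highest and no young library came near the adult range, with a log2FC of -1.11 ± 0.17 (SE, padj = 0.000276). Pmaip1 measured 810.6, 692.3 and 902.2 TPM in young TOM+ and 1527, 1012 and 1513 TPM in adult libraries. Adult library 2 was well under the other adult libraries yet above all young ones, and the log2FC was -0.88 ± 0.14 (SE, padj = 0.000382). Bmf, whose product is held at the cytoskeleton until it is released, measured 3.56, 2.55 and 3.01 TPM in young TOM+ and 5.36, 6.09 and 7.43 TPM in adult libraries. The groups were separate, and the log2FC was -1.20 ± 0.19 (SE, padj = 0.000393) on 118 to 180 reads in young TOM+ and 187 to 328 reads in adult libraries.

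Bcl2l11, a BH3-only gene of many haematopoietic cells, measured 28.3, 25.8 and 41.4 TPM in young TOM+ and 32.9, 34.0 and 39.3 TPM in adult libraries. Young library 3 was the highest of all and the other young libraries were the lowest, and the log2FC was -0.19 ± 0.19 (SE, 95% interval -0.59 to 0.22, padj = 0.449). Without young library 3 the log2FC was -0.48 (padj = 0.0306), so this call rested on that library.

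The roles summed as follows over the members, which leaves out the guardian A1. Guardians held 658.0 ± 101.9 TPM (SD, n = 3) in young TOM+, 630.4 ± 94.7 in young TOM- and 612.9 ± 45.0 in adult libraries, and these sums overlapped. Effectors held 300.5 ± 8.14, 299.3 ± 7.09 and 269.3 ± 13.9 TPM. BH3-only genes held 935.7 ± 113.6, 860.3 ± 35.4 and 1453 ± 302.3 TPM, so their sum was highest in adults, where it ranged from 1104 to 1628 TPM against 816.5 to 1043 TPM in young libraries. Most of that sum was Pmaip1.

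**Figure D3:**
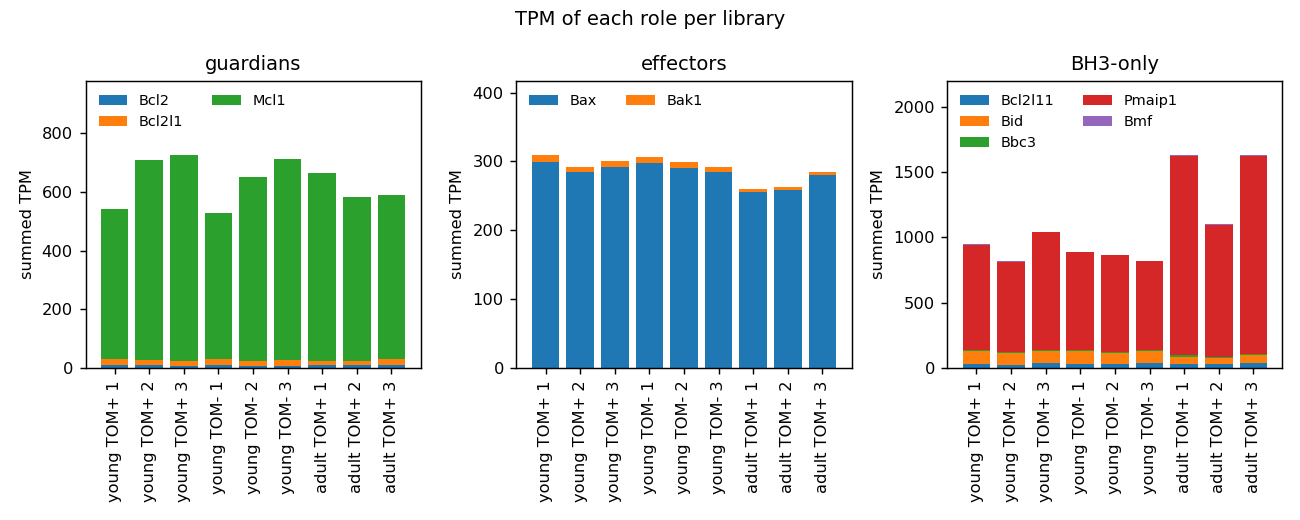
TPM of the members, as guardians, effectors and BH3-only genes, stacked for each of the 9 libraries, with a colour per gene and an axis per role. Mcl1, Bax and Pmaip1 fill most of each bar, and the BH3-only bars of adult libraries reach 1104 to 1628 TPM against 816.5 to 1043 TPM in young libraries.

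The second comparison set young TOM+ cDC2 against young TOM- DC2, cells of the same age and surface sort that differ in the Clec9a-Cre history. No member passed at padj under 0.05, against 1.60% of all genes (edgeR), and DESeq2 called none either. At an unadjusted p under 0.05 there was 1 member, Bcl2, and 1355 genes in all. The groups did not overlap in normalised counts for 2 members, Bcl2l1 and Bid, against 16.6% of all genes. The median absolute log2FC was 0.09 over the members and 0.13 over all genes.

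Bcl2 measured 9.88, 7.62 and 7.51 TPM in young TOM- libraries. The latter pair lay under all young TOM+ libraries and the first under 2 of them, and the log2FC of TOM+ over TOM- was 0.33 ± 0.15 (SE, 95% interval 0.0042 to 0.65, padj = 0.522). Bcl2l1 measured 21.1, 17.6 and 20.6 TPM in young TOM-, with a log2FC of -0.20 ± 0.14 (SE, 95% interval -0.52 to 0.11, padj = 0.794). Mcl1 measured 496.1, 625.8 and 684.9 TPM, with a log2FC of 0.10 ± 0.16 (SE, 95% interval -0.26 to 0.45, padj = 0.945). In both young groups library 1 had the lowest Mcl1 of its group. These libraries share the number 81 in their deposited names, and without them the log2FC of Mcl1 between young TOM+ and adult cells was 0.11 (padj = 0.379).

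None of the effectors or BH3-only genes differed between the young groups at padj under 0.05. Bax measured 297.9, 290.6 and 284.4 TPM and Bak1 8.22, 9.20 and 7.58 TPM, with 95% intervals of the log2FC from -0.12 to 0.18 and from -0.23 to 0.41. Bid measured 94.6, 86.5 and 86.1 TPM, with an interval from -0.11 to 0.29. For these genes the TPM ranges of both young groups overlapped. Bcl2l11 measured 32.2, 29.8 and 40.4 TPM, with an interval from -0.47 to 0.33, and its highest value was in library 3 (number 92), as in young TOM+ cDC2. Bbc3 measured 7.90, 6.49 and 7.76 TPM, with an interval from -0.52 to 0.23. Here too the young groups overlapped. Pmaip1 measured 751.7, 743.2 and 684.8 TPM, with an interval from -0.13 to 0.48, and Bmf 4.47, 2.57 and 2.45 TPM, with an interval from -0.43 to 0.44. All of these intervals include 0, and the widest leave room for a change of 0.52 on the log2 scale.

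Within the 3 pairs of young libraries that share a number, 5 members had 1 sign throughout, as did 43.3% of all genes. In the order 81, 91, 92, the difference of TOM+ minus TOM- in log2 TMM-normalised counts (CPM) was 0.20, 0.56 and 0.20 for Bcl2 and 0.0843, 0.14 and 0.065 for Mcl1. It was 0.0902, 0.0968 and 0.0746 for Bid. Bcl2l1 was lower in TOM+ in each pair (-0.17, -0.14 and -0.28), as was Bbc3 (-0.11, -0.29 and -0.0605). The other members had both signs. In the fit with these pairs as a block no member passed (edgeR), the smallest padj being 0.284 for Bcl2, with a log2FC of 0.32 ± 0.13 (SE, 95% interval 0.0457 to 0.60). The interval then narrowed for Mcl1 (-0.0652 to 0.26) and Bcl2l11 (-0.28 to 0.11), and that of Bbc3 ran from -0.50 to 0.20.

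Young TOM- DC2 were also set against adult TOM+ cDC2. Age and Clec9a-Cre history differ together here and cannot be told apart, and the adult libraries are those of the first comparison. Bak1 and Bid were higher in young cells, and Bbc3, Pmaip1 and Bmf higher in adults, so 5 of 10 members passed, against 36.3% of all genes, 2 of them higher (19.4%) and 3 lower (16.9%). The log2FC was 0.72 ± 0.16 (SE, padj = 0.00347) for Bak1 and 0.73 ± 0.09 (SE, padj = 8.97e-05) for Bid. It was -0.97 ± 0.17 (SE, padj = 0.00086) for Bbc3, -1.05 ± 0.14 (SE, padj = 0.000125) for Pmaip1 and -1.20 ± 0.20 (SE, padj = 0.000479) for Bmf. Pmaip1 and Bmf were beyond a log2FC of 1, against 11.3% of all genes. In 6 members the groups did not overlap in normalised counts (47.6% of all genes), the sixth being Bcl2.

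Bcl2 had a log2FC of -0.35 ± 0.15 (SE, padj = 0.0937) in young TOM- DC2 against adults. With the young libraries paired by their number it was -0.35 (padj = 0.0464), and without both libraries numbered 81 it was -0.47 (padj = 0.0406). Bcl2l1 had a log2FC of 0.20 ± 0.15 (SE, padj = 0.320), which became 0.41 (padj = 0.0177) without adult library 3, the adult library with the most Bcl2l1. Mcl1 (-0.12, padj = 0.588), Bcl2l11 (-0.12, padj = 0.647) and Bax (-0.02, padj = 0.877) did not pass.

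RSEM's mean transcript length describes which isoforms a gene's reads were assigned to. For Bcl2 it was 3211 to 3366 bases in young TOM+, 3121 to 3286 in young TOM- and 2951 to 3140 in adult libraries. For Bcl2l11 it was 4463 to 4676 bases in young and 4119 to 4555 in adult libraries, which overlap. Bcl2l1 moved only between 2421 and 2462 bases, and the other 7 genes had 1 length in all libraries. These lengths are estimates from short reads and were not tested.

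The genes whose log2(TPM + 1) followed a member most closely over the 9 libraries were looked up among 9084 genes. For Bcl2 they were Cdc42ep2, Chmp4b and Nfxl1 (Pearson's r of 0.91, 0.91 and 0.90). Mcl1 was followed by Ier2, Slc35e4 and Fosb (0.94 each), of which Ier2 and Fosb are immediate early genes. Bcl2l11 was followed by Irs2, Zfp667 and Psrc1 (0.90, 0.89 and 0.88). The points share 3 groups and paired libraries, and the genes were picked for their likeness, so these values are a description. Among the members, on the same log2(TPM + 1) scale, Bid followed Bax (0.93) and Bak1 (0.92) and ran against Bbc3 (-0.87). The libraries include the difference between ages. On this scale Bax differed by 0.14 between young TOM+ and adult cells, but its log2FC in normalised counts was 0.01. Whether Bid follows Bax in normalised counts was not tested.

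The other genes of the pathway were counted by list in young TOM+ against adult TOM+ cDC2, and Bcl2a1 stood out by level. These counts are read against the 21.0% of all genes that were higher in young cells and the 19.5% that were lower. Of 16 other BCL2 family genes, 14 were tested, 1 was higher in young cells and 5 were lower. Bad, a BH3-only gene controlled by survival signals, was higher in young cells (47.1 ± 4.92 TPM against 21.2 ± 1.39 TPM in adults, SD, n = 3), with a log2FC of 1.02 (padj = 7.49e-05). Bcl2l15 was lower, with a log2FC of -1.22 (padj = 0.0489) at no more than 1.57 TPM in any library. The lower genes also held Bcl2a1b and Bcl2a1d, copies of the guardian A1 that are nearly identical, and only 30.2% to 31.6% of the reads RSEM gave to the copies were counted on them by STAR. Summed over 4 copies, A1 held 2116 ± 161.6 TPM in young TOM+, 2431 ± 246.0 in young TOM- and 2549 ± 247.3 in adult libraries (SD, n = 3), above Mcl1 in every group. The log2FC of that sum was -0.43 ± 0.11 (SE, padj = 0.00794) between young TOM+ and adult cells on RSEM's expected counts, and its split into copies remains uncertain.

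Of 13 apoptosome and caspase genes, 4 were higher in young cells and 1 lower. Casp2 was higher, at 44.5 ± 1.94 TPM against 27.5 ± 1.58 TPM (log2FC 0.57, padj = 0.000114), and Htra2, a mitochondrial protease, was lower, at 62.1 ± 7.48 TPM against 92.1 ± 5.92 TPM (log2FC -0.74, padj = 0.000112). Of 8 inhibitor of apoptosis genes, 2 were higher and 3 lower. Birc2 and Birc3, the cellular inhibitors that act at TNF receptors, were lower, with log2FC of -1.06 (padj = 2.29e-05) and -1.12 (padj = 6.71e-06). Birc5 was higher, with a log2FC of 1.64 (padj = 2.49e-05), and its product, survivin, also serves in mitosis, as do most of the proliferation genes that were higher in young cells.

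**Figure D4:**
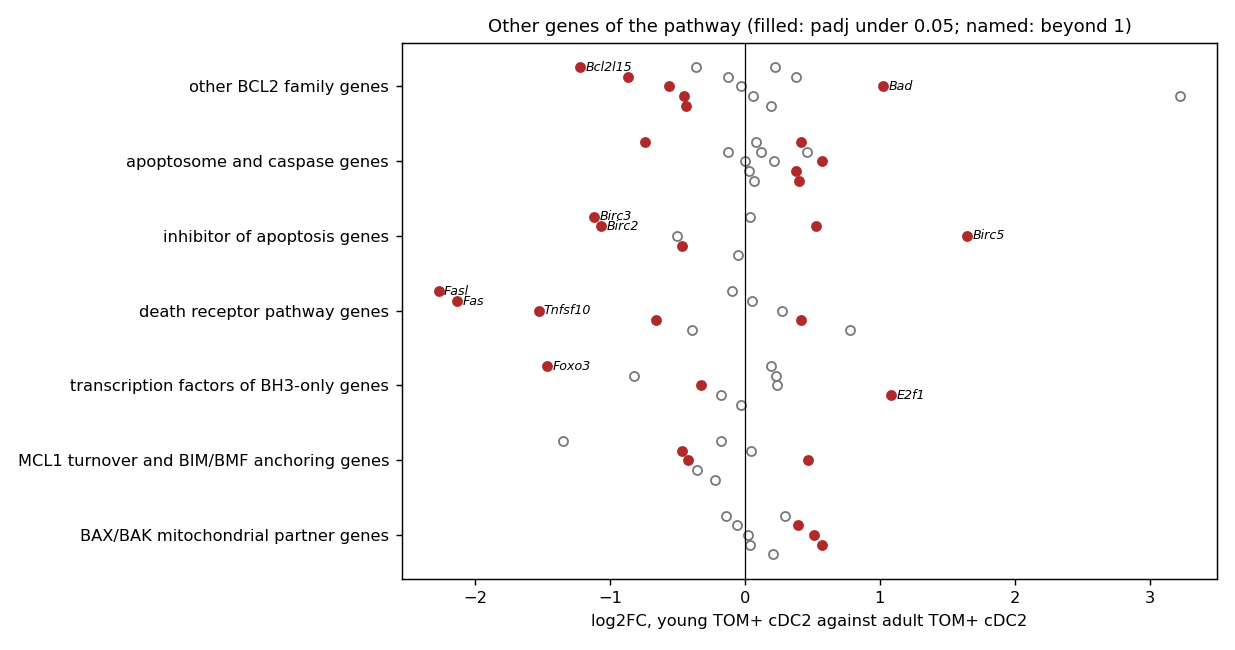
Log2FC of the tested genes of 7 pathway lists in young TOM+ against adult TOM+ cDC2, with a point per gene, filled red for padj under 0.05 and named where the log2FC is also beyond 1. Fas, Fasl, Tnfsf10, Foxo3, Birc2, Birc3 and Bcl2l15 lie to the left, and Bad, Birc5 and E2f1 to the right.

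Of 10 death receptor genes, 4 were lower in young cells and 1 was higher, and the other 5 did not pass, of which Tnfrsf10b, Fadd and Ripk1 had a log2FC above 0. Fas measured 3.76 ± 0.52 TPM in young TOM+, 6.70 ± 1.55 in young TOM- and 12.9 ± 3.51 in adult libraries (SD, n = 3), a log2FC of -2.13 (padj = 4.54e-05) between young and adult TOM+ cDC2. Its ligand Fasl (log2FC -2.27, padj = 0.0046) and Tnfsf10, which encodes TRAIL (log2FC -1.53, padj = 0.004), were lower too, at no more than 3.45 TPM in any library. The remaining lower gene was Cflar, with a log2FC of -0.66 (padj = 0.00213). The 1 gene that was higher was Casp8, named here after its value was seen because its product cuts BID, with a log2FC of 0.42 (padj = 0.00232).

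Of 9 tested transcription factor genes that act on BH3-only genes, or control p53, 1 was higher and 2 were lower. E2f1 was higher in young TOM+ cDC2 (47.6 ± 7.10 TPM against 20.6 ± 2.94 TPM, log2FC 1.09, padj = 4.87e-05). Foxo3, which drives Bbc3 and Bcl2l11 in other cells, was lower (2.90 ± 0.20 TPM against 7.48 ± 1.49 TPM, log2FC -1.46, padj = 9.03e-05). With the young libraries paired by number, 6 of the 9 passed, in a fit where 46.1% of all genes did. As many passed without the libraries numbered 81, where 40.5% of all genes did. Of 8 genes for MCL1 turnover or for holding BIM and BMF, 1 was higher and 2 were lower, Huwe1 (log2FC -0.47, padj = 0.0199) and Usp9x (log2FC -0.42, padj = 0.0215), a ligase and a deubiquitinase of MCL1. That count was 5 with the pairing, where 46.1% of all genes passed, and fell to 0 without young TOM+ library 2 (33.1% of all genes). It was 1 without young TOM+ library 3 (33.8%), without adult library 1 (34.8%) or on the TPM scales (41.8% for TPM + 1 and 42.4% for TPM + 0.1). Of 9 mitochondrial partners of BAX and BAK, 3 were higher and none lower, with Mtch2, a receptor for truncated BID, at 75.2 ± 2.89 TPM against 48.8 ± 0.96 TPM (log2FC 0.51, padj = 0.000231) and Vdac3 at a log2FC of 0.57 (padj = 0.00114).

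Between young TOM+ cDC2 and young TOM- DC2 no gene of these 7 lists passed by edgeR or by DESeq2. Of the 71 tested, 5 had an unadjusted p under 0.05 with edgeR, as did 1355 of all 14452 genes. The 5 were Foxo3, Naip2, Fas, E2f1 and Casp6. Young TOM- DC2 against adult TOM+ cDC2 gave 5 of 14 other BCL2 genes, 4 of 13 apoptosome and caspase genes, 4 of 8 inhibitor genes, 5 of 10 death receptor genes, 4 of 9 transcription factor genes, 1 of 8 turnover genes and 3 of 9 mitochondrial partners, against 36.3% of all genes. Bad (1.04, padj = 8.28e-05), Birc5 (1.45, padj = 7.6e-05), Birc3 (-1.07, padj = 1.22e-05), Fas (-1.24, padj = 0.0018) and Tnfsf10 (-1.72, padj = 0.00245) were beyond a log2FC of 1. So was Tnfrsf10b, a TRAIL receptor at under 0.9 TPM (1.57, padj = 0.0441). Where none was, the smallest padj belonged to Htra2 (-0.76, padj = 0.000114) and Casp2 (0.42, padj = 0.00128), E2f1 (0.79, padj = 0.000606) and Mdm4 (-0.43, padj = 0.00154), Huwe1 (-0.41, padj = 0.0404), and Mtch2 (0.45, padj = 0.000673) and Vdac2 (0.39, padj = 0.00167). With the pairing, 8 of the 14 other BCL2 genes and 4 of the 8 turnover genes passed, in a fit where 42.8% of all genes did. On both TPM scales 7 of the 13 apoptosome and caspase genes and 5 of the 9 mitochondrial partners passed. In those fits 40.9% (TPM + 1) and 41.0% (TPM + 0.1) of all genes passed.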

How the data were processed

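mRNA of sorted splenic cells was sequenced from SMART-seq cDNA, without strand, as short single-end reads. The authors aligned reads to mm10 with STAR and deposited raw counts of reads per gene, of which the unstranded column was used, and RSEM's expected counts and TPM per gene. Reads that fell on no single gene (26.1% to 29.1% per young and 30.2% to 31.6% per adult library) entered no library size. Reads on no annotated feature were 8.84% to 12.8% in young and 15.2% to 17.1% in adult libraries. TMM normalization factors were 1.025 to 1.085 in young and 0.894 to 0.928 in adult libraries. The part of these library differences in the comparisons with adults was not tested. No tool version is given in the sources used here for STAR and RSEM.

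Counts were tested in R 4.3.3 with edgeR 4.0.16 (quasi-likelihood, TMM normalization, all 9 libraries in 3 groups), on the 14452 genes whose counts averaged 1 or more. P-values were adjusted over these genes by Benjamini-Hochberg (padj), and padj under 0.05 passed. Alternatives were DESeq2 1.42.0, limma 3.58.1 on log2(TPM + 1) and log2(TPM + 0.1), other size factors and filters, expected counts rounded to whole numbers, fewer libraries and a replicate block. The main edgeR fit, DESeq2 and limma on log2(TPM + 1) were run on counts simulated with known changes, 1 spread for all genes and no pairs. The other alternatives were not run on simulated counts. Overlap of groups was judged on TMM-normalised counts.

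Groups came from the labels. Replicates were numbered in accession order, and nothing says which animals each library holds, so p-values measure the spread between these libraries. Libraries of a group were no copies of each other (lowest chi-square per gene 8.74). In both young groups the deposited names carry 81, 91 and 92, and those of the adult libraries 91, 92 and 95. What these numbers mean is not stated. Deviations from the group means correlated by 0.50, 0.18 and 0.33 within 81, 91 and 92, and by -0.41 to 0.19 between numbers. The value for 91 thus lay inside the range between numbers. Deviations cancel within a group, which lowers the values between numbers where those within are positive. The numbers were taken to pair the young libraries in an alternative fit only, and the pair numbered 91 is the least certain. Between adult and young libraries of the same number the correlations were -0.00178 to 0.0412, so adults entered no pair.

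Members and lists were chosen with earlier results of these data known. Of the pathway lists, genes are named where padj was under 0.05 and the log2FC beyond 1, otherwise the 2 with the smallest padj under 0.05 in a list, with all 10 members given in full. Some genes, among them Casp8, Cflar and the Bcl2a1 copies, are named outside this rule. The 3 genes most like Bcl2, Mcl1 and Bcl2l11 were sought among genes with a mean TPM of at least 5. Adgre1 and Ly6g, 2 of the listed markers, were not analysed here, and 1 marker list is not reported here. Promoters were read from a RefSeq table that held windows for 9 of the 10 members.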

Additional observations from a re-analysis of the deposited data

How the results depend on the processing

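The counts of members that passed stayed within 1.5 times their main value under all 19 alternatives of each comparison, and Bak1, Bid, Bbc3, Pmaip1 and Bmf kept their direction and passed in all of them in both comparisons with adults. In young TOM+ against adult cells their log2FC ranged from 0.71 to 0.96, 0.73 to 0.95, -1.23 to -0.84, -1.04 to -0.73 and -1.30 to -0.85. Values near 0 changed sign, without passing. In that comparison this held on log2(TPM + 1) and log2(TPM + 0.1) for Bcl2 (0.0286 and 0.0298), Bcl2l1 (0.13 and 0.13) and Mcl1 (0.0919 and 0.092), for Mcl1 without both libraries numbered 81 (0.11), and for Bax with RLE factors (-0.0106), DESeq2 (-0.0111), filterByExpr (-0.0156) and expected counts (-0.0184). In young TOM- against adult cells it held on the TPM scales for Mcl1 (0.0255 and 0.0256) and Bax (0.14 and 0.14) and for Mcl1 without the libraries numbered 81 (0.0132). Between the young groups it held for Bmf with expected counts (-0.0028) and on the TPM scales (-0.0179 and -0.0149). Leaving out 1 library at a time gave ranges of -0.11 to 0.0908 for Bcl2, -0.13 to 0.21 for Bcl2l1, -0.14 to 0.13 for Mcl1 and -0.0215 to 0.035 for Bax in young TOM+ against adult cells, -0.0553 to 0.25 for Mcl1, -0.33 to 0.10 for Bcl2l11 and -0.15 to 0.27 for Bmf between the young groups, and -0.26 to 0.0305 for Mcl1 and -0.0416 to 0.0051 for Bax in young TOM- against adult cells. The cause was not tested.

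On log2(TPM + 0.1) the median of all genes was 0.17 in young TOM+ and 0.22 in young TOM- against adult cells, and on log2(TPM + 1) 0.10 and 0.14, against 0.05 and 0.07 in normalised counts. Of the genes that passed, 67.9% and 73.9% (TPM + 0.1) and 67.4% and 73.0% (TPM + 1) were higher in young cells, against 51.9% and 53.5%. With the replicate block 405 genes passed between the young groups, against 231, and 367 with DESeq2. Leaving out young TOM+ replicate 2, young TOM+ replicate 3 or young TOM- replicate 3 left 152, 147 and 157. The block changed the call of no member other than Bcl2 in young TOM- against adult cells (log2FC -0.35, padj = 0.0464). Bcl2 also passed there without young TOM- replicate 1 (-0.46, padj = 0.0469). Of 399 list counts under alternatives, 26 moved by over 1.5 times, most of them in the turnover list. That list gave 0 to 4 genes in young TOM- against adult cells, where 29.5% to 43.7% of all genes passed by setting. Bak1, Bbc3 and Bmf rest on 58 to 328 reads per library, which limits how small a change they could show.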
